A study of Mus musculus with 16 samples.

Results

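This account describes how gene expression in the palate of control mouse embryos changed over 1 day, from embryonic day E13.5 to E14.5. The arrays were chosen by their labels alone, with no measured value: all 3 control arrays of E13.5 and all 5 of E14.5, 8 of the 16 arrays in the series. The controls of both days were C57BL/6J embryos homozygous for a floxed Erk2 gene (Erk2 fl/fl) without Cre, and their sample titles call them wild-type. The other 8 arrays are embryos with the same floxed gene plus Wnt1-Cre, which deletes Erk2 in neural crest cells, at the same days (3 and 5 arrays). RNA came from palate mesenchyme tissue according to the extraction protocol, whereas the design text speaks of primary mesenchymal cells. The labels do not say whether an array holds 1 embryo or a pool, so the p-values reflect how far these samples spread, which may be technical.

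The secondary palate forms from shelves of neural crest mesenchyme covered by epithelium. In the mouse the shelves grow downward beside the tongue, lift to a horizontal position, meet in the midline and fuse, and bone then forms in the part that becomes the hard palate. The nasal side of the shelf is covered by epithelium that becomes ciliated airway lining, and the oral side by epithelium that becomes stratified.

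Expression was measured on one-colour Affymetrix arrays, and the deposited values are log2 signals. Deposited array medians were 3.39 to 3.40 in E13.5 controls and 1.63 to 1.66 in E14.5 controls, so the value scales differed between the days. All 8 arrays were therefore brought to one distribution by quantile normalization, and log2 values below 3.24, the 60th percentile, were set to that value, called the floor. Of 18193 genes, 10904 lay above the floor on at least 3 arrays and were tested, and 7289 did not. Over the tested genes, arrays of one day correlated at 0.993 to 0.997 and arrays of different days at 0.919 to 0.938. All arrays of E13.5 stand against all arrays of E14.5, and a batch label is given for E14.5 alone (controls 1 and 2 in batch 1, controls 3, 4 and 5 in batch 2). The embryonic day and any difference in how the arrays were run therefore cannot be told apart. Sex-linked transcripts placed the 3 E13.5 controls and E14.5 control 4 as female and the other 4 as male. As a sign of RNA quality, the signal at the 5′ end of beta-actin less that at the 3′ end ran from −1.34 to −1.02 in E13.5 controls and from −1.61 to −1.06 in E14.5 controls. For Gapdh the same difference ran from −0.71 to −0.44 and from −0.58 to 0.17, so it was higher on 4 of the 5 E14.5 arrays than on any E13.5 array. Its part in the results was not tested.

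A gene is said to have risen or fallen where its difference passed a Benjamini-Hochberg adjusted p of 0.05 in limma and was at least 1.5-fold. By this rule 1722 of 10904 genes (15.8%) rose and 1874 (17.2%) fell, and these shares are the background for the shares of each gene list below. Without the fold limit 8386 (76.9%) passed, in a fit with 6 residual degrees of freedom and a median moderated standard error of 0.072 on the log2 scale. A difference of at least 2-fold was reached by 740 genes that rose and 699 that fell, and the median log2 difference over all tested genes was −0.04. In 7938 of the tested genes (72.8%) the arrays of the 2 days did not overlap. That share is the background for each gene said below to show no overlap. With the values as deposited the split was 435 higher and 5974 lower (3.59% and 49.3% of 12117 genes), and the median over all genes moved to −0.58. With each array centred on the median of its brighter signals it was 2040 higher and 2938 lower (17.7% and 25.5% of 11517). Levels and differences below are on the quantile-normalized log2 scale, errors of differences are moderated standard errors, and adjusted p-values are from limma.

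Probe sets of one gene often differed. A gene was represented by its brightest probe set, and in 4355 genes with at least 2 probe sets above the floor the brightest and the second brightest changed in the same direction in 57.7%. Where the brightest changed at least 2-fold the share was 71.8% (338 of 471). Of the 676 risen genes with several probe sets, 196 rose by the same rule on all of them, and of 597 such fallen genes 152 fell on all. Where a gene named below has further probe sets above the floor that did not pass with the brightest, this is said beside it.

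**Figure D1:**
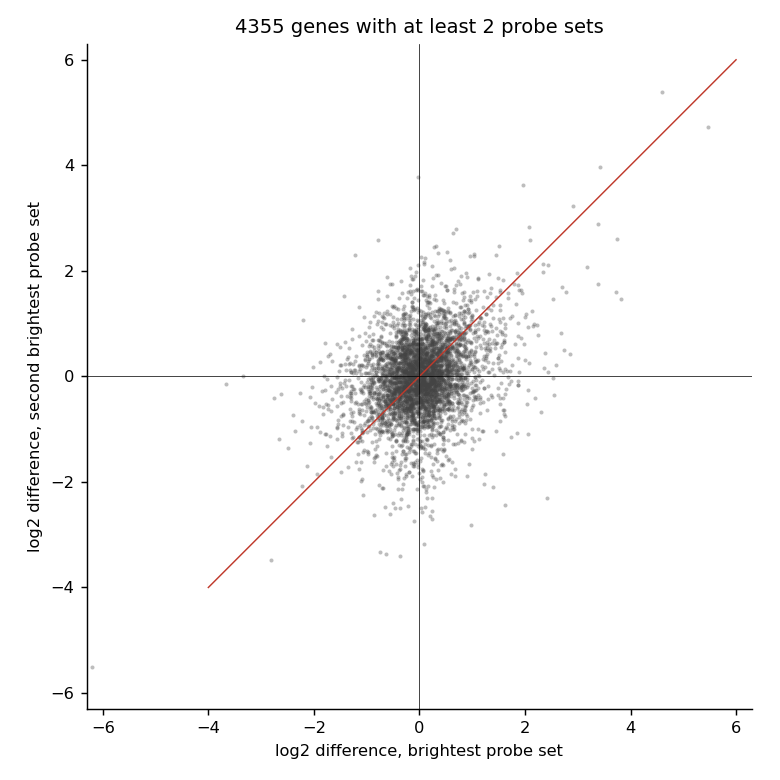
Each point is 1 of 4355 genes with at least 2 probe sets above the floor, with the log2 difference (E14.5 minus E13.5 controls) of its brightest probe set on the horizontal axis and of its second brightest on the vertical axis, and the red line marks equal values. The points spread widely around the line, and 57.7% of genes lie in the quadrants of equal sign.

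Genes of bone formation rose. Of 19 tested members of a list of osteoblast and bone matrix genes, 17 rose and 2 fell, with a median log2 difference of 1.68 (2 further members were not above the floor). Among the 18 members above the floor on at least 1 array of both days, 16 rose (88.9%) against 14.9% of the 10055 tested genes of that kind. The list is described by these counts, with no test of its own. In bulk RNA, more cells of a type and more RNA per cell (or fewer and less) cannot be told apart, here and for each cell type below.

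Within the list, Dmp1, Ibsp and Phex, all genes of mineralizing bone, showed the largest differences. Dmp1, a phosphoprotein of the bone matrix made by late osteoblasts and osteocytes, was at 3.24, 3.24 and 3.24 at E13.5 and 8.15, 8.77, 8.64, 8.93 and 9.05 at E14.5. The rise was at least 44.1-fold, and all 3 of its probe sets rose. Every E13.5 array lay at the floor and every E14.5 array lay far above it. Ibsp, bone sialoprotein, was at 7.97, 7.09 and 7.29 at E13.5 and 11.82, 12.20, 12.04, 12.05 and 12.13 at E14.5. It rose 24.2-fold (4.60 ± 0.17, adjusted p = 7.9e-09), on both of its probe sets, and unlike Dmp1 it was already well above the floor at E13.5. Phex, an endopeptidase of osteoblasts that guards mineralization, was at 3.24, 3.57 and 3.25 at E13.5 and 6.81, 7.41, 7.40, 7.47 and 7.38 at E14.5. It rose 15.3-fold (3.94 ± 0.15, adjusted p = 9.9e-09) and lay at or near the floor at E13.5.

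The other genes of the list named here changed less. Sp7, the transcription factor osterix, was at 6.86, 6.14 and 6.11 at E13.5 and 7.16, 7.19, 7.36, 7.24 and 7.50 at E14.5, a 1.9-fold rise (0.92 ± 0.16, adjusted p = 0.00031) with no overlap between the days. Alpl, the phosphatase of mineralizing tissue, rose by 1.35 ± 0.13, and Col1a1, the main collagen chain of bone, rose by 1.87 ± 0.10 on both of its probe sets. Ifitm5, an osteoblast membrane protein, rose by 3.15 ± 0.23 and the channel protein Panx3 by 2.68 ± 0.27. In both of these E13.5 control 1 was the highest E13.5 array (Ifitm5 at 6.64 against 5.54 and 5.43, Panx3 at 7.43 against 6.76 and 6.01). The homeobox genes Msx2 and Dlx5, regulators of early osteoblast progenitors, went the other way. Msx2 was at 4.77, 4.47 and 4.29 at E13.5 and 3.24, 3.28, 3.24, 3.41 and 3.24 at E14.5, a fall of 1.22 ± 0.10, and Dlx5 was at 6.61, 6.52 and 6.38 at E13.5 and 5.46, 5.80, 5.67, 5.80 and 6.09 at E14.5, a fall of 0.74 ± 0.12. Neither gene overlapped between the days, and Msx2 reached the floor on 3 E14.5 arrays. With the values as deposited, where 3.59% of all genes rose, 13 members of the list did, and under the other alternatives 15 to 18.

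Genes linked with resorption and with signals to osteoclasts, the cells that resorb bone, also moved. Of 14 genes on that list 7 were tested, 4 rose (57.1%, beside 15.8% of all genes) and none fell. With centred arrays or with the mean over probe sets 2 rose. As deposited 1 rose, and the median turned from 0.66 to −0.36, where that of all genes was −0.58. Acp5, the tartrate-resistant phosphatase of osteoclasts, was at 3.97, 3.56 and 3.24 at E13.5 and 4.94, 6.39, 5.63, 6.11 and 6.30 at E14.5, and rose by 2.28 ± 0.30 (adjusted p = 5.3e-05). E14.5 control 1 was the lowest of its day. Ctsk, cathepsin K, rose by 0.91 ± 0.13, Tnfsf11, the cytokine RANKL, by 1.15 ± 0.18, and Mmp9 by 0.66 ± 0.19. Mmp9 lost its call without E14.5 control 5 (0.55), its second probe set had the opposite sign, and with the values as deposited Tnfsf11 and Mmp9 changed sign. Tnfrsf11b, the RANKL decoy receptor osteoprotegerin, rose by 1.68 ± 0.19. Mmp13, the collagenase of late chondrocytes and osteoblasts, was at 3.24, 3.24 and 3.24 at E13.5 and 7.59, 6.83, 7.01, 6.62 and 6.69 at E14.5. Its rise was at least 13-fold. Col22a1, a collagen of tissue junctions, rose at least 13.3-fold and the carbonic anhydrase Car3 13.4-fold, each on 2 of 2 probe sets, and the secreted C1qtnf3 14.8-fold. These 3 were among the 15 largest rises of all genes.

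**Figure D2:**
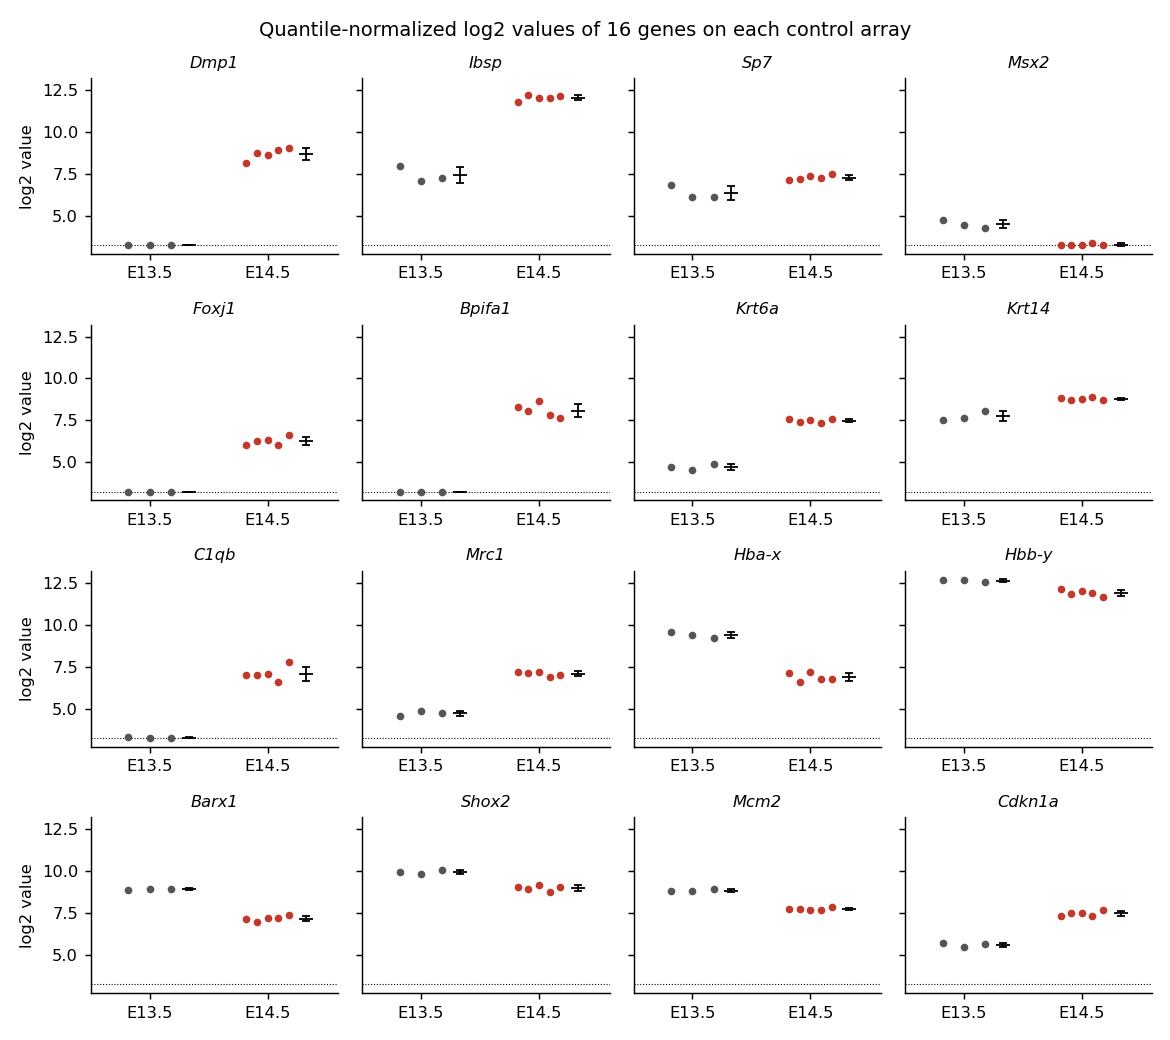
Quantile-normalized log2 values of 16 genes on each of the 3 E13.5 (grey) and 5 E14.5 (red) control arrays, in array order within a day, with the mean and SD beside them and the floor of 3.24 as a dotted line. In each of the 16 genes the arrays of the 2 days do not overlap, as in 72.8% of all tested genes. Dmp1, Foxj1 and Bpifa1 lie at the floor on all E13.5 arrays.

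Matrix genes of soft connective tissue moved in part. Among 9 tested tendon and ligament genes 5 rose (55.6%) and 1 fell (median 0.78). Fmod, the collagen-binding proteoglycan fibromodulin, was at 5.90, 6.20 and 6.29 at E13.5 and 7.88, 8.29, 7.96, 8.24 and 8.13 at E14.5, and rose by 1.97 ± 0.11 (adjusted p = 1.1e-07, 5 of 6 probe sets). Chodl rose by 1.42 ± 0.05, the matricellular protein Thbs2 by 1.25 ± 0.13 (2 of 3 probe sets), the tendon membrane protein Tnmd by 1.13 ± 0.19 and the homeobox gene Mkx by 0.78 ± 0.10. Thbs4 fell by 0.68 ± 0.13. As deposited, Tnmd was at −0.12. Of 19 collagen-processing genes 7 rose (36.8%) and 2 fell (median 0.43). Lox, the oxidase that starts collagen cross-links, was at 9.17, 9.05 and 9.05 at E13.5 and 10.13, 10.03, 10.11, 10.07 and 10.04 at E14.5, a narrow and complete separation (0.98 ± 0.04, adjusted p = 1.8e-08, 2 of 2 probe sets). The procollagen C-proteinase enhancers Pcolce and Pcolce2 rose by 1.07 ± 0.04 and 1.98 ± 0.14, and P4ha1, a subunit of prolyl 4-hydroxylase, by 0.91 ± 0.06. Plod3, a lysyl hydroxylase, and Bmp1, a procollagen C-proteinase, fell by 1.14 and 0.86, and the second probe set of Bmp1 had the opposite sign. In the list of 13 cartilage genes 5 rose (38.5%) and 1 fell, with a median of 0.13 that turned to −0.40 with centred arrays. Among the 11 measured at both days 4 rose (36.4%) and 1 fell (9.09%), against 14.9% and 16.8% of all such genes. Col2a1, the collagen of cartilage, was at 6.77, 7.45 and 6.82 at E13.5 and 5.90, 5.93, 6.06, 6.01 and 5.83 at E14.5, and fell by 1.07 ± 0.14, while Hapln1, which links hyaluronan to proteoglycan, rose by 1.33 ± 0.15 on all 3 probe sets and Col11a1 by 1.54 ± 0.08, with 0.56 on its second probe set. The other 3 that rose were Col9a2, Col9a3, whose second probe set gave −0.72, and Col11a2.

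Hyaluronan is a hydrated polysaccharide that fills the matrix of the palatal shelf. Has2, the main synthase of it in embryonic mesenchyme, was at 8.23, 8.21 and 8.27 at E13.5 and 7.05, 6.74, 6.99, 6.89 and 6.79 at E14.5. It fell by 1.35 ± 0.07 (adjusted p = 7.6e-08) on both of its probe sets, to well below every E13.5 array. Of the 13 tested genes of hyaluronan synthesis, turnover and binding 4 rose (30.8%) and 2 fell (15.4%). Tnfaip6, which binds hyaluronan and modifies its network, rose by 1.12 ± 0.07, the protease Adamts1 by 0.88 ± 0.07, the synthase Has3 by 0.85 ± 0.16 from a level at or near the floor (−0.73 as deposited and −0.15 with centred arrays), and the receptor Cd44 by 0.65 ± 0.09 (0.48 on its second probe set). The hyaluronidase-family gene Hyal2 fell by 0.77 ± 0.09.

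Genes of ciliated and secretory airway epithelium appeared at E14.5. Of 32 genes on the list 16 were not above the floor at either day, among them Dnah5, a dynein chain, and Scgb1a1, the secretoglobin of club cells. Of the other 16, 12 lay above the floor at E14.5 only. These had to differ, so their number is not a result. Foxj1, the transcription factor that directs motile ciliogenesis, was at 3.24, 3.24 and 3.24 at E13.5 and 6.05, 6.28, 6.34, 6.04 and 6.65 at E14.5. Its rise was at least 8.15-fold, and no E13.5 array was above the floor. Dynlrb2, a dynein light chain, was at 3.24, 3.24 and 3.24 at E13.5 and 7.95, 8.32, 8.14, 7.62 and 8.15 at E14.5, at least 27.7-fold higher, and Bpifa1, a secreted protein of nasal and upper airway lining, was at 3.24, 3.24 and 3.24 at E13.5 and 8.27, 8.06, 8.64, 7.81 and 7.62 at E14.5, at least 28.6-fold higher. Deup1, a gene outside this list that organizes the mass production of centrioles in multiciliated cells, rose at least 13.8-fold. Cfap126 and Tekt1, both parts of motile cilia, rose at least 10.1-fold and at least 5.97-fold. The other 4 lay above the floor on arrays of both days. Cyp2f2, a cytochrome P450 of airway secretory cells, was at 4.26, 3.24 and 3.50 at E13.5 and 7.39, 7.08, 7.71, 7.38 and 7.35 at E14.5, and rose by 3.71 ± 0.21, while Sec14l3 rose by 1.10 ± 0.19 on all 3 probe sets and Rfx3, a factor of ciliary gene promoters, by 0.73 ± 0.09. Tekt2 fell by 1.36 ± 0.07. Cbr2, a carbonyl reductase abundant in lung and also outside the list, rose 15.4-fold (3.94 ± 0.15).

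Many promoters of ciliary genes carry X-boxes, which RFX factors bind, and GTTGCC (or its reverse, GGCAAC) is part of that box. RefSeq promoters (GRCm38.p6) were matched for 12 of the 15 airway-list genes that rose. In the 250 bases before the start, GTTGCC stood on either strand in 5 of 12 (41.7%), against 10.5% of all 27025 promoters and 10.4% of those of tested genes. The 120 bases before the start are shown for 3 of these 5, the ones that hold the motif there, because they let the spacing to the start be seen. Capitals mark GTTGCC or GGCAAC, and each line runs 5′ to 3′ on the strand of the gene.
Dynlrb2 (chr8:116504895-116505014, plus strand): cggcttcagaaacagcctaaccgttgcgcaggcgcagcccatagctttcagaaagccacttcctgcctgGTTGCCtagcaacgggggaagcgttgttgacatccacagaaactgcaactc
Tekt1 (chr11:72361883-72362002, minus strand): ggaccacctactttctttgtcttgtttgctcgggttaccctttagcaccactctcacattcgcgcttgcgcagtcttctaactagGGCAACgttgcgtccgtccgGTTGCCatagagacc
Ccdc113 (chr8:95533980-95534099, plus strand): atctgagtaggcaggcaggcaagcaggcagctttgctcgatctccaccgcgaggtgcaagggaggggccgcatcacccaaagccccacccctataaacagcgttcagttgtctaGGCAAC
In these stretches the match nearest the 5′ end began 51, 35 and 6 bases before the start, and Tekt1 held 2 matches. A match is a description of letters and does not show binding.

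Genes listed for oral and for stratified epithelium moved too, in samples labelled as mesenchyme. Bulk RNA does not place them on the oral or the nasal side. The defining epithelial markers were above the floor at both days: Epcam was at 9.26 to 9.27 on the E13.5 arrays and 9.12 to 9.49 on the E14.5 arrays, and Trp63 at 7.50 to 8.14 and 7.44 to 7.94. Of 25 tested oral epithelium genes 10 rose (40%) and 3 fell (12%), with a median of 0.26. Of 28 tested genes of stratified epithelium 13 rose and 2 fell, with a median of 0.58. Among the 23 of these measured at both days, 11 rose (47.8%), against 14.9% of all such genes. With the values as deposited 5 and 4 rose, and both medians were below 0 (−0.54 and −0.39), where that of all genes was −0.58. Krt6a, a keratin of suprabasal and periderm cells, was at 4.69, 4.52 and 4.91 at E13.5 and 7.58, 7.42, 7.50, 7.34 and 7.56 at E14.5. It rose 6.84-fold (2.77 ± 0.09, adjusted p = 5.3e-09) on all 3 probe sets. Krtdap, which marks differentiating keratinocytes, rose by 2.77 ± 0.20 and Krt7 by 1.51 ± 0.08. The junction genes Dsc2 and Perp rose by 0.88 ± 0.05 and 0.76 ± 0.05. Krt14, a keratin of basal cells, was at 7.52, 7.67 and 8.07 at E13.5 and 8.83, 8.74, 8.75, 8.87 and 8.73 at E14.5, and rose by 1.03 ± 0.10 on both probe sets. Krt19, of simple and basal epithelium, rose by 1.43 ± 0.06, the protease inhibitor Spint2 by 1.14 ± 0.04 with a second probe set of opposite sign, and Cdh1, E-cadherin, by 0.62 ± 0.05. The genes that fell were the claudins Cldn6 and Cldn4 (1.39 and 0.76), Bnc1 (0.84), Elf5 (1.15) and Jup (0.60). The fall of Jup missed the limit of 1.5-fold without E13.5 control 3 (−0.45) or without any 1 of E14.5 controls 1 to 4 (−0.58 to −0.53). Lgals3, a galectin of epithelia and macrophages, was at 3.48, 3.37 and 3.48 at E13.5 and 7.14, 7.15, 7.17, 7.14 and 7.08 at E14.5, a 12.9-fold rise (adjusted p = 2.3e-10).

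Macrophage genes rose. Of 22 tested genes 17 rose and none fell, with a median of 1.30, and of the 17 measured at both days 14 rose (82.4%), against 14.9% of all genes measured at both days. The mean level of these 17 was 4.67 to 4.92 on the E13.5 arrays and 6.17 to 6.40 on the E14.5 arrays. C1qb, a chain of complement C1q made by resident macrophages, was at 3.29, 3.24 and 3.24 at E13.5 and 7.0, 6.99, 7.08, 6.56 and 7.76 at E14.5. It rose by 3.82 ± 0.20 (adjusted p = 7.5e-08), and its other probe sets gave 1.47 and 1.64. Mrc1, the mannose receptor, was at 4.59, 4.83 and 4.71 at E13.5 and 7.20, 7.14, 7.21, 6.87 and 6.99 at E14.5, and rose by 2.37 ± 0.09. F13a1, a clotting factor subunit, rose by 2.52 ± 0.09 and Fcer1g, a signalling chain of Fc receptors, by 1.51 ± 0.07. The lysosomal Laptm5 rose by 2.35 ± 0.09 on its brightest probe set, while 1 of the other 2 had the opposite sign. Csf1r, the receptor on which macrophages depend, was at 7.14, 7.15 and 6.96 at E13.5 and 7.40, 7.32, 7.37, 7.29 and 7.24 at E14.5 on its brightest probe set, a difference of 0.24 ± 0.06, under the fold limit, and its second probe set gave 0.85. Adgre1, a surface receptor of macrophages, rose by 0.98 ± 0.11 and with the values as deposited was at −0.14. With the values as deposited, where 3.59% of all genes rose, 7 members did, and with centred arrays 12.

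Promoters of myeloid genes often hold GGAA-type sites of ETS factors such as PU.1. AGGAAG (or CTTCCT) stood in the 250 bases before the start of 10 of 14 matched macrophage genes that rose (71.4%), against 29.2% of all promoters and 26.7% of those of tested genes. Stretches of 120 bases before the start are shown for C1qb and Laptm5, with the motif in capitals, because these were among the larger rises and hold it close to the start.
C1qb (chr4:136886201-136886320, minus strand): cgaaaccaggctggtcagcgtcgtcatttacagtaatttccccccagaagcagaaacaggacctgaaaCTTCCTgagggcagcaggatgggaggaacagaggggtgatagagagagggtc
Laptm5 (chr4:130913196-130913315, plus strand): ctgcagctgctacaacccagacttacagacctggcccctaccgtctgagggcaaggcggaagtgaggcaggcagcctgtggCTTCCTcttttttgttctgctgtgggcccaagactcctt
The match began 52 bases before the start in C1qb and 39 bases before it in Laptm5. TGTGGT (or ACCACA), the core of RUNX sites, stood in 0 of 9 matched bone genes that rose. It is held by 14.2% of all promoters and 10.1% of those of tested genes. No match says only that these letters were not in this window.

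Embryonic globins fell. These are the haemoglobin chains of the first, yolk sac wave of red cells, which circulates through every embryonic tissue. Hba-x, the zeta chain, was at 9.60, 9.38 and 9.20 at E13.5 and 7.14, 6.61, 7.19, 6.74 and 6.79 at E14.5. It fell by 2.50 ± 0.14 (adjusted p = 9.5e-08), a 5.65-fold difference. Hbb-bh1, an embryonic beta-type chain, was at 7.97, 7.62 and 7.18 at E13.5 and 5.00, 4.38, 4.91, 4.75 and 4.88 at E14.5, and fell by 2.81 ± 0.18 on all 3 probe sets. Hbb-y, the epsilon-type chain, was at 12.70, 12.67 and 12.53 at E13.5 and 12.14, 11.87, 12.03, 11.87 and 11.68 at E14.5. It fell by 0.72 ± 0.09 (adjusted p = 3e-05), also on 3 of 3, with no overlap between the days. With centred arrays 2 of the 3 passed. The adult chain Hbb-b2 rose by 1.74 ± 0.10 on its brightest probe set, its second gave −1.15, and in batch 1 alone it was at −1.04. Globin genes are near-identical copies, so this value is uncertain. Of 9 tested red cell genes outside the globins 1 rose (Slc4a1, with −0.54 on its second probe set) and 2 fell (Epor and Bcl11a, the latter on 1 of 5 probe sets with 2 of opposite sign), and the defining factors Gata1 and Klf1 were not above the floor.

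The stretches of 120 bases before the start are shown for the 2 embryonic globin genes with a RefSeq promoter. Capitals mark CACCC and CCAAT (or their reverse), elements known from globin promoters, which 51.3% and 34.5% of all promoters hold within 250 bases of the start.
Hba-x (chr11:32276480-32276599, plus strand): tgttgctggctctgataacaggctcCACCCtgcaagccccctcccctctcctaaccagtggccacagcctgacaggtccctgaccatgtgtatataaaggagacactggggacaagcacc
Hbb-y (chr7:103853208-103853327, minus strand): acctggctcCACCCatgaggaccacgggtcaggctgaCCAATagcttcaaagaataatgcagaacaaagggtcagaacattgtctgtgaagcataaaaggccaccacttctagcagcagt
Both held CACCC, 95 bases before the start in Hba-x and 111 in Hbb-y, and within this stretch only Hbb-y held CCAAT, 83 bases before it.

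**Figure D3:**
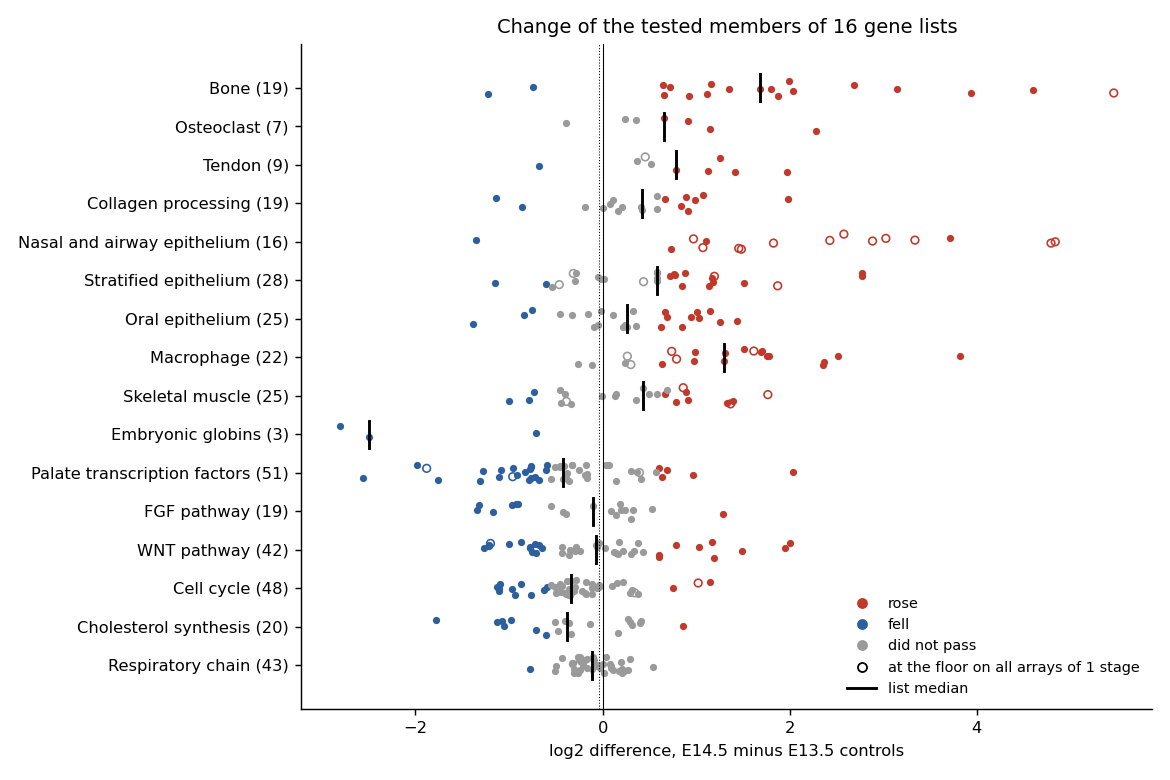
Log2 difference (E14.5 minus E13.5 controls) of each tested member of 16 gene lists, with the number tested in parentheses, the median as a black bar (none for the airway list, most of whose members had to differ) and the median of all genes (−0.04) as a dotted line. Open circles are genes at the floor on all arrays of 1 day, whose value is a bound: they make up most of the airway list and few members of the others.

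Transcription factors of the palatal shelf fell more often than they rose. Of 51 tested, 21 fell (41.2%, beside 17.2% of all tested genes) and 5 rose, with a median of −0.42. With the mean over probe sets 14 fell, and with the values as deposited, where 49.3% of all genes fell, 35. With sex as a term in the fit 15 fell, where 17.7% of all genes did. The median stayed below 0 with centred arrays (−0.20), as deposited (−0.81) and as deposited after the shift of all genes was taken off (−0.24). Hic1, a zinc finger repressor, was at 5.86, 6.03 and 5.77 at E13.5 and 3.24, 3.27, 3.30, 3.44 and 3.37 at E14.5, and fell by 2.56 ± 0.08 (adjusted p = 4.2e-09) almost to the floor. Barx1, a homeobox gene of the posterior and molar mesenchyme, was at 8.88, 8.95 and 8.96 at E13.5 and 7.15, 6.95, 7.21, 7.19 and 7.36 at E14.5, and fell by 1.75 ± 0.08 (adjusted p = 2.2e-08). Tbx15 fell by 1.98 ± 0.13, and Foxc2, a forkhead factor whose loss causes cleft palate in mice, fell at least 3.68-fold, to the floor on all E14.5 arrays.

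Of the genes known for patterning the shelf along its axes, Shox2, of the anterior shelf, was at 9.97, 9.83 and 10.07 at E13.5 and 9.08, 8.92, 9.18, 8.78 and 9.03 at E14.5. It fell by 0.96 ± 0.09 (adjusted p = 2.5e-06) on both probe sets. Tbx3 fell by 1.10 ± 0.09 on both probe sets and Tbx2 by 1.31 ± 0.13. Osr2, whose loss prevents shelf growth, was at 5.72, 5.60 and 5.99 at E13.5 and 5.08, 4.89, 5.13, 5.18 and 5.19 at E14.5, and fell by 0.68 ± 0.10. Msx1 was at 8.36, 8.61 and 8.92 at E13.5 and 8.02, 8.50, 8.05, 8.71 and 9.07 at E14.5 and did not pass (−0.16 ± 0.23, adjusted p = 0.52), with overlap between the days, while its second and dimmer probe set gave −1.64. Tbx22, mutated in X-linked cleft palate, was at 7.20, 7.07 and 7.15 at E13.5 and 7.14, 6.69, 6.76, 6.70 and 6.46 at E14.5, a difference of −0.39 ± 0.12 that was under the fold limit. The 5 that rose were Pax3, Gsc, Six4, Tfap2a and Pax9, and 4 of these were not supported by all probe sets. Gsc, with 1 probe set, rose by 0.97 ± 0.10 and was at −0.10 as deposited. Six4 passed on 2 of 3 probe sets and was opposite on the third. Pax3 rose by 2.04 ± 0.12 on its brightest probe set and gave −0.53 on the other. Pax9 rose by 0.61 ± 0.10, just past the limit, where its other probe sets gave −1.84 and −1.24, and its call was lost without E13.5 control 1 (0.49), E14.5 control 1 (0.58) or E14.5 control 3 (0.57). Tfap2a had a second probe set of opposite sign (−0.25) and lost its call without E14.5 control 5 (0.55).

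Members of the FGF pathway, the growth factor pathway upstream of ERK, fell in part. Of 19 tested, 6 fell (31.6%, beside 17.2% of all tested genes) and 1 rose (5.26%), with a median of −0.11. As deposited 11 fell, where 49.3% of all genes did. Fgf9, an epithelial and mesenchymal ligand, was at 5.44, 5.20 and 5.28 at E13.5 and 3.97, 3.88, 3.92, 4.11 and 3.91 at E14.5, and fell by 1.34 ± 0.08 (adjusted p = 1.4e-07) on both probe sets. The ligand Fgf18 fell by 0.93 ± 0.08. The feedback inhibitors among the 6 that fell were Il17rd (Sef), by 1.32 ± 0.09, Spry1, by 1.17 ± 0.08, and Spred2, by 0.91 ± 0.07. The decoy receptor Fgfrl1 fell by 0.96 ± 0.05, and the second probe sets of Fgfrl1 and Spred2 had the opposite sign. The receptor Fgfr3, which restrains growing cartilage and marks osteogenic fronts, was at 6.75, 6.50 and 6.33 at E13.5 and 7.68, 7.87, 7.74, 7.69 and 8.08 at E14.5, and rose by 1.29 ± 0.11.

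In the WNT pathway 9 of 42 tested genes rose (21.4%) and 13 fell (31%), with a median of −0.07, and with the mean over probe sets 6 rose and 5 fell. Among secreted inhibitors, Wif1 was at 7.0, 6.66 and 6.90 at E13.5 and 8.70, 9.17, 8.70, 8.85 and 8.91 at E14.5, and rose by 2.01 ± 0.11 (adjusted p = 8.8e-08). Dkk1 was at 5.72, 4.74 and 4.83 at E13.5 and 6.60, 7.17, 7.18, 7.13 and 7.13 at E14.5, and rose by 1.95 ± 0.21 on both probe sets. Znrf3, a membrane ligase that removes Frizzled receptors, rose by 1.17 ± 0.06, and Lgr6, an R-spondin receptor, by 1.49 ± 0.13. Among receptors, Fzd2 was at 9.59, 9.70 and 9.70 at E13.5 and 8.57, 8.33, 8.38, 8.31 and 8.37 at E14.5, and fell by 1.27 ± 0.06 on all 3 probe sets. The ligand enhancer Rspo3 fell by 1.22 ± 0.09, and Axin2, a common readout of canonical signalling, by 0.76 ± 0.10. The inhibitors named here, Fzd2, Rspo3 and Axin2 did not overlap between the days, as in 72.8% of all tested genes. They are a selection from the list. Among the other members that rose were Ccnd1 (−0.48 on its second probe set), Dkk2 and Lrp4. Among the others that fell were Lef1 and Lgr5.

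Of 26 BMP pathway genes 5 rose (19.2%, near the 15.8% of all genes) and 2 fell (7.69%), and with the mean over probe sets 2 rose and none fell. Smad7, an inhibitory SMAD, rose by 1.58 ± 0.07 with a second probe set of opposite sign, and the antagonist Chrdl1 rose by 2.14 ± 0.14 on 2 of 2. Id2, a target of the pathway, rose by 0.82 ± 0.06 with a second probe set of opposite sign, the pseudoreceptor Bambi by 0.88 ± 0.06 and the ligand Bmp5 by 0.84 ± 0.18, which was at −0.33 as deposited. The ligand Bmp7 was at 5.78, 5.56 and 5.74 at E13.5 and 4.50, 4.20, 4.60, 4.16 and 4.13 at E14.5, and fell by 1.38 ± 0.12 (−0.36 on its second probe set), and the receptor Bmpr1b fell at least 1.61-fold, to the floor. Of 19 TGF-beta genes 5 fell (26.3%, beside 17.2% of all genes) and 1 rose. With centred arrays 4 rose and 4 fell, and with the mean over probe sets 1 rose and 1 fell, so the excess of falls did not hold. Tgfb2 rose by 0.77 ± 0.07 on its brightest probe set, and 1 of its other 3 passed the same limits. The activin chain Inhba was at 7.68, 7.87 and 8.17 at E13.5 and 6.56, 6.49, 6.52, 6.89 and 6.86 at E14.5, and fell by 1.24 ± 0.13. The signal transducers Smad3 and Smad2 fell by 0.68 and 1.21, the receptor Tgfbr1 by 0.60 and the co-receptor Eng by 0.65. Of these, Smad2 turned to 0.54 when probe sets were averaged, Tgfbr1 at −0.58 without E14.5 control 3, and Eng at −0.10 and −0.12 without E13.5 control 2 or 3 (its second probe set gave −0.08).

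Of 14 hedgehog genes 2 rose (14.3%) and 1 fell (7.14%), both under the shares of all genes. Hhip, a decoy receptor and target of the pathway, was at 5.42, 5.21 and 5.53 at E13.5 and 6.88, 6.56, 6.97, 6.44 and 6.32 at E14.5, and rose by 1.25 ± 0.15 on 3 of 4 probe sets. The co-receptor Cdon rose by 0.81 ± 0.06, and Scube3 fell by 1.11 ± 0.11. Of 22 Notch and Eph genes 2 rose (9.09%) and 7 fell (31.8%). Ephb3, a guidance receptor required with Ephb2 for the palate, was at 7.07, 7.17 and 7.20 at E13.5 and 5.81, 5.52, 5.80, 5.84 and 5.70 at E14.5, and fell by 1.42 ± 0.08 (adjusted p = 1.1e-07). The Notch ligand Dll1 fell by 0.96 ± 0.07, to the floor on 4 of 5 E14.5 arrays, while the effector Hey2 rose at least 3.28-fold and Efna1 rose by 0.84 ± 0.08. Of 13 retinoid genes 2 rose (15.4%) and 4 fell (30.8%). Aldh1a1, an enzyme that makes retinoic acid, was at 3.99, 3.33 and 4.02 at E13.5 and 7.94, 7.86, 7.98, 7.75 and 7.64 at E14.5, a 16.6-fold rise (adjusted p = 8.9e-09). Aldh1a3, with the same activity, rose at least 2.71-fold. The receptor Rarg was at 6.46, 6.35 and 6.43 at E13.5 and 4.20, 4.03, 4.11, 4.18 and 4.38 at E14.5, and fell by 2.23 ± 0.08, and Cyp26a1, which degrades retinoic acid, fell by 1.18 ± 0.09. The other 2 that fell were Crabp1 and Rdh10, whose second probe set gave −0.09.

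Of the cell cycle genes a minority fell, and the sign of the list's median depended on the scaling. Of 48 tested, 10 fell and 3 rose, 38 lay below 0, and the median was −0.34, which turned to 0.08 with centred arrays. With the mean over probe sets 6 fell, and with the values as deposited 22, where 49.3% of all genes fell. Mcm2, a subunit of the replicative helicase, was at 8.83, 8.79 and 8.92 at E13.5 and 7.72, 7.74, 7.67, 7.69 and 7.88 at E14.5. It fell by 1.10 ± 0.06 (adjusted p = 5.1e-08), and its second probe set gave −0.25. Fen1, the flap endonuclease, fell by 1.09 ± 0.05 (−0.52 on its second), the checkpoint kinase Chek1 by 1.11 ± 0.05 (1 of 3 probe sets, −0.11 on the second) and Ube2c, of the mitotic ubiquitin ligase, by 0.94 ± 0.05. The share that fell, 20.8%, was near that of all tested genes (17.2%). Those that rose were Ccne2 (1.15 ± 0.08), Cdc6 (0.75 ± 0.06) and E2f2, which left the floor (at least 2.03-fold) and was at −0.53 as deposited. Of 18 inhibitors of cyclin-dependent kinases and growth arrest genes 5 rose (27.8%) and 2 fell (11.1%), with a median of 0.41. Among the 16 measured at both days 4 rose (25%) and 2 fell (12.5%), against 14.9% and 16.8% of all such genes. Cdkn1a, the inhibitor p21, was at 5.70, 5.47 and 5.63 at E13.5 and 7.30, 7.53, 7.52, 7.33 and 7.69 at E14.5, and rose by 1.87 ± 0.09 (adjusted p = 4.8e-08) on both probe sets. Cdkn1b, the inhibitor p27, was at 7.07, 7.13 and 6.86 at E13.5 and 8.32, 8.52, 8.29, 8.52 and 8.14 at E14.5, and rose by 1.34 ± 0.09. Gadd45b rose by 0.95 ± 0.11, Gadd45g by 0.73 ± 0.10 and Pmaip1 at least 2.21-fold. Mdm2 fell by 1.11, with an opposite sign on its second probe set, and Cdkn2c by 0.61, a call lost without E13.5 control 3 (−0.57) or E14.5 control 1 (−0.56) or 4 (−0.58).

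Late cell cycle promoters commonly carry a CCAAT box (CCAAT or ATTGG) and a CHR element (TTTGAA or TTCAAA). Of 9 matched cell cycle genes that fell, 6 (66.7%) held the first and 5 (55.6%) the second in the 250 bases before the start. The shares were 34.5% and 16.3% of all promoters, and 36.5% and 10.2% of those of tested genes. The stretch before the start of Ube2c is shown because it holds both.
Ube2c (chr2:164769809-164769928, plus strand): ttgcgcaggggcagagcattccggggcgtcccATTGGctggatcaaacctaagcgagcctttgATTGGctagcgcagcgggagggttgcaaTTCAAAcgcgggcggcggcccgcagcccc
Capitals mark 2 copies of ATTGG, 88 and 57 bases before the start, and TTCAAA 29 bases before it.

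Genes of developmental timing are high in early embryonic tissues and decline with age. Of 7 tested, 3 fell (42.9%, beside 17.2% of all tested genes) and none rose, and 5 further ones were not above the floor. Of the 6 measured at both days 2 fell (33.3%), against 16.8% of all such genes. The median of −0.34 turned to −0.004 with centred arrays, where 3 fell. Hmga2, a chromatin protein and target of the let-7 microRNAs, was at 9.66, 9.76 and 9.76 at E13.5 and 8.51, 8.42, 8.58, 8.86 and 8.72 at E14.5. It fell by 1.11 ± 0.09 (adjusted p = 9.7e-07) on all 3 probe sets. Igf2bp1, an RNA-binding protein, fell by 0.98 ± 0.06 on 3 of 4, and Arid3a fell at least 2.86-fold, to the floor on all E14.5 arrays.

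Among metabolic genes, those of cholesterol synthesis fell more often than they rose: of 20 tested 7 fell (35%) and 1 rose (median −0.38, and −0.07 with the mean over probe sets). Srebf2, the transcription factor that drives this pathway, was at 6.53, 6.55 and 6.63 at E13.5 and 4.64, 4.68, 4.85, 4.75 and 5.02 at E14.5, and fell by 1.78 ± 0.09 (adjusted p = 5.1e-08) on both probe sets. The enzymes Sc5d and Sqle fell by 1.08 and 1.05. Insig1, which holds the SREBP proteins in the endoplasmic reticulum, rose by 0.85 ± 0.06. Of 19 glycolysis genes 5 rose (26.3%) and 3 fell (15.8%), and with the mean over probe sets 1 rose and 3 fell. Among the 18 measured at both days 4 rose (22.2%) and 3 fell (16.7%), against 14.9% and 16.8% of all such genes. Pgam1 was at 9.22, 9.12 and 9.04 at E13.5 and 10.31, 10.39, 10.29, 10.36 and 10.28 at E14.5, and rose by 1.2 ± 0.05, Pfkp left the floor (at least 3.06-fold), and Slc2a1, the glucose transporter GLUT1, rose by 1.07 ± 0.04 on its brightest probe set and by 0.29 and 0.36 on the others. The other 2 that rose were Pfkfb3 and Pdk1, which passed on 1 of 3 probe sets and was opposite on another. Those that fell were Pfkm, Pfkfb4 and Slc2a3, whose second probe set did not fall. Of 43 subunits of the respiratory chain none rose and 1 fell, Atp5d (0.78, and −0.23 on its second probe set), against 15.8% and 17.2% of all tested genes. Their median was −0.11, which turned to 0.38 with centred arrays, where 11 rose. Without the fold limit the fit passed 76.9% of genes, so small shifts of this kind are within what most genes showed.

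Skeletal muscle genes separated the E14.5 arrays from each other. The mean level of the 21 muscle genes measured at both days was 5.89 to 6.28 at E13.5. At E14.5 it was 5.76 and 5.68 on controls 1 and 3 and 6.66, 6.68 and 6.89 on controls 2, 4 and 5. The 2 low arrays come from different labelled batches. Ttn, the giant sarcomere protein titin, was at 5.55, 4.50 and 5.45 at E13.5 and 6.05, 7.12, 6.11, 6.44 and 7.07 at E14.5, and Myh8, a perinatal myosin chain, was at 3.24, 3.24 and 3.24 at E13.5 and 3.98, 5.78, 4.34, 5.08 and 5.88 at E14.5. In both genes E14.5 controls 1 and 3 were the lowest of their day. In the list of 25 tested genes 9 rose (36%) and 3 fell (12%). Of these, 3 lay above the floor at E14.5 only, Myh8 among them, and had to differ. Among the 21 measured at both days 6 rose (28.6%) and 3 fell (14.3%), against 14.9% and 16.8% of all such genes. Des fell by 0.74 ± 0.06, to the floor or just above it, while Actc1 and Tnni1 fell by 0.79 and 1.00 with overlap between the days. The calls of Actc1 and Tnni1 were lost without any 1 of the E13.5 controls or without E14.5 control 1 or 3. Under these, Actc1 lay at −0.87 to −0.58 and Tnni1 at −1.18 to −0.72. A comparison without E14.5 controls 1 and 3 was added after the data were seen. In it 16 bone, 16 macrophage and 15 stratified epithelium genes rose, against 17, 17 and 13 with all arrays. Of the palate transcription factors 20 fell, against 21. Of all 10793 genes tested in that comparison 15.7% rose and 17.3% fell. Whether muscle in the dissected piece bears on these lists was not tested beyond those counts. Of other cell types, endothelium had 7 genes that rose (26.9%) and 4 that fell (15.4%) of 26, which turned to 5 and 10 with centred arrays. Neurons had 2 (15.4%) and 1 (7.69%) of 13, which turned to 1 and 4, and Snap25 was not above the floor. Fabp4, a lipid carrier of fat and capillary cells, was at 3.24, 3.51 and 3.24 at E13.5 and 6.58, 6.79, 6.74, 6.76 and 6.91 at E14.5, and rose by 3.42 ± 0.09, and by 3.97 on its second probe set.

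**Figure D4:**
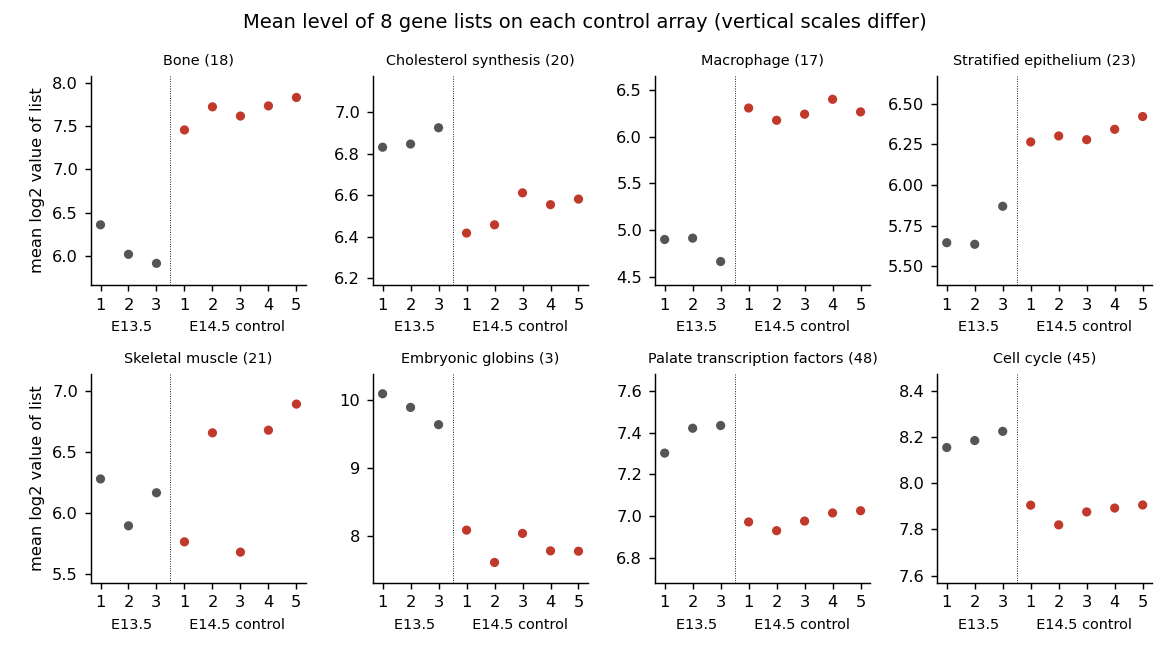
Mean quantile-normalized log2 value of the members of 8 gene lists that lay above the floor on arrays of both days (number in parentheses) on each of the 3 E13.5 (grey) and 5 E14.5 (red) control arrays. In 7 of the 8 lists the days do not overlap, as in 72.8% of all tested genes. Lists not drawn also separate, such as the respiratory chain (10.10 to 10.13 at E13.5, 9.96 to 10.03 at E14.5). In skeletal muscle E14.5 controls 1 and 3, at 5.76 and 5.68, lie below the E13.5 arrays.

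Several of the largest falls rested on 1 of several probe sets or on a single one. Sema3f, a secreted guidance factor, was at 7.11, 6.89 and 7.05 at E13.5 and 3.38, 3.34, 3.24, 3.24 and 3.55 at E14.5, a fall of 3.67 ± 0.09, but its other 2 probe sets gave −0.14 and −0.39. Hyou1, a chaperone of the endoplasmic reticulum, fell by 3.35 where its other probe set was at 0.01, and Hspg2, the basement membrane proteoglycan perlecan, fell by 2.76 where the other gave −0.41. Lypla2 and U2af2, with 1 probe set above the floor each, fell by 3.20 and 2.84. Mtx1, an outer mitochondrial membrane protein, was at 8.99, 8.93 and 8.96 at E13.5 and 6.26, 6.21, 6.40, 6.35 and 6.26 at E14.5, and fell by 2.67 ± 0.05 on both of its probe sets. Among the 15 largest falls, only Hbb-bh1 and Mtx1 had several probe sets above the floor that all passed. Among the 15 largest rises, Dmp1, Ibsp, C1qb, Car3 and Col22a1 did.

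The mutants are other samples, on which the stage change was measured a second time. In a fit of all 16 arrays, 1720 of the 1722 risen genes and 1873 of the 1874 fallen genes had the same direction in mutants, and 1543 and 1654 of them also passed there. The stage change differed between genotypes in 35 genes at an adjusted p of 0.05. Within the lists, all called members of the bone, airway, macrophage, stratified epithelium, palate transcription factor and cell cycle lists had the same direction in mutants. No label ties arrays of both days to one run in either genotype, so this does not separate the day from how the arrays were run.

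**Figure D5:**
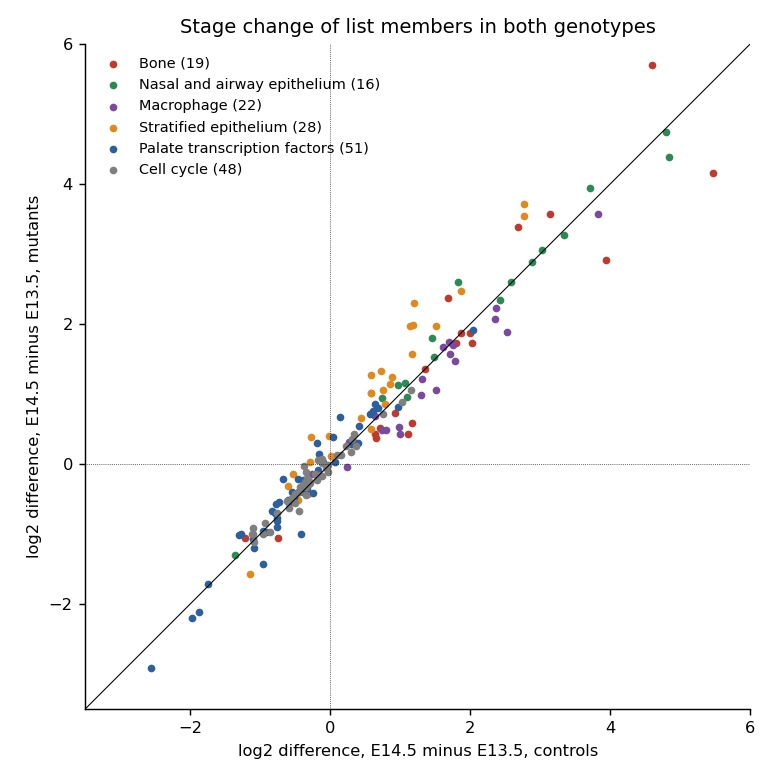
Log2 difference between E14.5 and E13.5 in controls (horizontal) and in mutants (vertical) for the tested members of 6 gene lists, with the line of equal change. Points lie along the line, Dmp1 (5.46 in controls, 4.15 in mutants) below it and Ibsp (4.60 and 5.70) above it.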

How the data were processed

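RNA of palate mesenchyme from 8 control samples was hybridised to Affymetrix mouse arrays. The deposited values are log2 signals per probe set, made by the authors with GCRMA per the submitters' processing notes (version not given in the sources used here). Because the deposited medians differed between the days, the 8 arrays were quantile normalized and values below the 60th percentile (log2 3.24) were raised to it. A gene took its probe set with the highest mean (before the floor was set) and was tested if at least 3 arrays exceeded the floor. The days were compared with limma 3.58.1 in R 4.3.3 (lmFit and eBayes with trend). Calls needed a Benjamini-Hochberg adjusted p of 0.05 and a 1.5-fold difference. A fold against a day wholly at the floor is a lower bound, written "at least". The floor removes the spread of that day, so no error or p-value is given beside such a fold. Tables and figures were made with Python 3.11.15, pandas 2.3.3 and matplotlib 3.10.9.

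The method was tested on simulated data for this comparison (10904 genes), with 67, 67 and 66 genes changed 1.5-fold, 2-fold and 4-fold. Of these 85.1%, 98.5% and 95.5% passed an adjusted p of 0.05 in limma without the fold limit. Of all genes that passed in this way 3.63% were false. Calls with the fold limit were not simulated. In the data 76.9% of genes passed without the fold limit, far more than were changed here, so these shares need not carry over. The number of arrays limits the precision.

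The comparison and the gene lists were chosen with earlier results of these data known. Genes were named by rule: the 15 largest rises and falls without overlap between the days, up to 4 members of each list with the smallest p, and the globins. Further members were named after their values were seen, among them Foxj1, Sp7, Msx2, Shox2, Krt14, Dkk1, Ttn and the remaining genes of short counts. Alternatives covered scaling, floor, filter, probe-set choice, sex, batch and single arrays.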

Additional observations from a re-analysis of the deposited data

Results flagged for a closer look

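In 10 genes described above, 1 E14.5 control lay apart from the other 4 by Dixon's test at the 95% level. Such a test flags about 1 group in 20 by chance, and well over 100 genes were examined. E14.5 control 1 was at 6.81 for Phex (others 7.38 to 7.47), 6.60 for Dkk1 (others 7.13 to 7.18) and 8.57 for Fzd2 (others 8.31 to 8.38), in each case toward the E13.5 level. Control 2 was at 10.91 for Id2 (others 10.67 to 10.73), and control 3 at 4.89 for Scube3 (others 5.23 to 5.32). Control 4 was at 3.41 for Msx2 (others 3.24 to 3.28). Control 5 was at 4.56 for Il17rd (others 4.80 to 4.88) and 4.40 for E2f2 (others 4.21 to 4.26). It was also at 3.35 for Dll1 and 3.25 for Des, where the others lay at the floor. With the others at the floor, any value above it is flagged, so these 2 flags carry no weight. The mean level of the housekeeping list was 9.92 on control 2 and 9.97 to 9.98 on the others. The 5′ minus 3′ signal of Gapdh was −0.58 on control 5 and −0.02 to 0.17 on the others.

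The stage change differed between genotypes in 3 of the named genes by limma's interaction term at an adjusted p of 0.05. Krt6a rose by 3.71 in mutants and 2.77 in controls, a difference of 0.94. Lox rose by 0.63 in mutants and 0.98 in controls, a difference of −0.35. Lyve1, a receptor of lymphatic endothelium and macrophages, lay at the floor on all E13.5 control arrays, so its rise of 2.58 in controls is a lower bound. The fitted rise in mutants was 1.62 and the fitted difference −0.96, which is no exact size, and the second probe set of Lyve1 changed by 0.22 in controls.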

How the results depend on the processing

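The main counts were 1722 genes that rose, 1874 that fell and 8386 without the fold limit. As deposited, 435 rose and 5974 fell; with centred arrays 2938 fell. With the mean over probe sets 1025 rose and 1213 fell, and 196 rose and 152 fell when all of at least 2 probe sets had to pass (chosen after seeing the data). With no filter and no floor, also chosen afterwards, 2785 rose, 3067 fell and 13140 passed without the fold limit. No filter with the floor kept was not run, since genes wholly at the floor have no variance. Leaving out each array in turn gave 1653 to 1837 that rose, 1818 to 1946 that fell and 7839 to 8466 without the fold limit. With sex as a term 1702 rose, 1935 fell and 6735 (61.8%) passed without the fold limit. Only E14.5 control 4 shared its sex with the E13.5 controls, so sex and day are poorly separated. With the replicate number as a block 1730 rose, 1920 fell and 8227 passed; same-numbered arrays correlated at −0.02, 0.16 and −0.04 in their deviations, so the numbers do not pair them. As deposited, the median over all genes was −0.58. On that scale these genes turned sign: Tnfsf11 (−0.36), Mmp9 (−0.033), Tnmd (−0.12), Adgre1 (−0.14), Gsc (−0.10), Tfap2a (−0.35), Bmp5 (−0.33), E2f2 (−0.53) and Has3 (−0.73, and −0.15 centred). So did Pax9 (−0.82) and Smad2 (0.54) with the mean over probe sets, and Hbb-b2 (−1.04) in batch 1 alone. The cause was not tested.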

Other observations

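Of 11 tested genes induced by interferon or belonging to antigen presentation, 5 rose (45.5%, beside 15.8% of all genes) and none fell: B2m (0.33 on its second probe set), Bst2, H2-D1, Ifi35 (1 of 3 probe sets) and Ifit2. The other 6 did not pass. With centred arrays 3 rose and 4 fell, and the median turned from 0.56 to −0.27, so the direction depends on the scaling. Of 11 pericyte and smooth muscle genes 3 rose (27.3%: Abcc9, Kcnj8 and Tagln) and none fell, and with centred arrays 6 rose and 2 fell. Among the 9 measured at both days 2 rose (22.2%), against 14.9% of all such genes. Among 26 endothelial genes the receptors Kdr and Flt1 (−0.27 on its second probe set) were among the 4 that fell, while Plvap, Emcn, Tek and Pecam1 were among the 7 that rose.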
